A study of Mus musculus with 4 samples.

Results

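The integrated stress response genes examined here were Atf4, Atf5, Ddit3, Ddit4, Trib3, Chac1, Asns, Sesn2, Cebpg and Ppp1r15a, chosen by gene symbol from the 24391 genes of the count table, which holds all 10. They were measured by RNA-Seq in Beko cells, a mouse progenitor T-cell leukemia line with constitutively active Notch signaling. The GSI group (2 libraries) was kept for 48 h in DAPT, a γ-secretase inhibitor (GSI) that blocks release of the active Notch1 fragment. The washout group (2 libraries) received the same 48 h of DAPT and was then washed and cultured for another 24 h without it. All libraries come from this 1 cell line, all cells had therefore been exposed to GSI, and no washed culture kept in GSI is among them, so the longer culture and the wash cannot be told apart from the return of Notch activity. The dose is labeled as 10 mg/ml for every library, whereas the methods of the study give it in μg/ml. The labels do not say whether the 2 libraries of a group came from separate cultures, so p-values measure only the spread between these libraries, which may be technical.

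In the integrated stress response, kinases that sense unfolded proteins, amino acid shortage, double-stranded RNA or heme deficiency phosphorylate the translation factor eIF2. General translation then drops, whereas the mRNA of Atf4 is translated better because of upstream reading frames. ATF4 protein, a bZIP transcription factor, binds with C/EBP partners to composite DNA elements and raises genes for amino acid uptake, amino acid synthesis and tRNA charging. It also raises regulators that brake growth, change redox state, end the response or favor cell death. mRNA levels as measured here report neither eIF2 phosphorylation nor ATF4 protein.

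After washout the 9 members that could be tested did not move as a block. Atf4 rose 2.55-fold and Sesn2 fell by 1.13 on the log2 scale, and these were the only members called in edgeR. A call means past both thresholds used in the study (adjusted p under 0.05, log2 fold change beyond 1 in either direction). The study applied them with DESeq2, which here also called Trib3 and Chac1 higher. In edgeR 11.1% of the tested members were called in each direction, near the 7.74% higher and 11.7% lower of all genes tested. Outside the 10, most tested genes of a list of other known ATF4 targets rose with Atf4. Among them were genes of serine synthesis, amino acid transport and tRNA charging. The list was chosen with earlier results of these data known. Of 25 tested genes of the parallel unfolded protein response of the endoplasmic reticulum, 2 were called lower and 0 higher, beside 11.7% and 7.74% of all genes tested. With so few genes these counts cannot be told from that background. In bulk RNA, a change in the number of cells that express a gene and a change in RNA per cell cannot be told apart.

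Total counts per library ranged from 13716199 to 36364200, and in both groups replicate 1 was the deeper library. Values are given as CPM, that is counts relative to the library total with its TMM scaling factor, and 3 counts, taken as the limit of detection, corresponded to between 0.0881 and 0.223 CPM and cover counting error only. Of the progenitor T-cell markers, all 15 were tested. Their summed level was between 7339 and 7982 CPM in GSI and between 7710 and 7733 CPM after washout. Of these markers 3 were called higher and 2 lower, beside 7.74% and 11.7% of all genes tested. Higher were Il2ra (3.19 on the log2 scale), Ptcra (2.37) and Notch1 (1.14), and lower were Gata3 (-1.67) and Cd4 (-1.16). The sum thus does not show the changes of single markers. The B-cell markers Pax5, Ms4a1 and Ebf1 and the myeloid markers Lyz2 and Elane were at 0 in every library, and none of the 6 B-cell markers was tested (summed level 0.323 to 0.960 CPM). Of the 6 myeloid markers, 1 was tested and called lower. This was Itgam, which made up nearly all of a summed level of 49.2 and 38.2 CPM in GSI against 5.49 and 4.91 CPM after washout. Of the 4 erythroid markers only Klf1 was tested and it was called lower, with a summed level of 1.30 to 1.41 CPM with GSI against 0.521 to 0.646 CPM after washout, while the other 3 were at 0 in every library. The stromal list (Col1a1, Col1a2 and Pdgfrb, with the epithelial marker Epcam) held 4 genes, all tested. Only Col1a1 was called lower, from 29 and 18 counts with GSI against 4 and 0 after washout. Their summed level was 46.0 to 48.2 CPM with GSI against 28.2 to 37.2 CPM after washout. The part of these markers in the results was not tested.

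The promoters of 5 members are shown because they hold the letters of DNA elements tied to this pathway or to Notch. Promoter windows were taken from RefSeq (build GRCm38.p6), from 250 bases before to 50 bases after the transcript start, and placed in mm9, the build of the counts, by exact match. All 10 genes had a window, 11 in all since Atf5 has a pair of starts. Both strands were searched for TGATGNAA, the core of the C/EBP-ATF response element (N is any base), for TGACGTCA, the cAMP response element, for TGGGAA, the core of the RBPJ site, and for the ER stress response element. Capitals mark each match, and no matches overlapped. The windows, each read in the direction of its gene and in the order printed, are chr2:119176728-119177027 on the plus strand, chr2:152169747-152170046 on the minus strand, chr6:7643160-7643459 on the minus strand, chr7:52781589-52781888 on the minus strand and chr4:132066322-132066621 on the minus strand.
Chac1: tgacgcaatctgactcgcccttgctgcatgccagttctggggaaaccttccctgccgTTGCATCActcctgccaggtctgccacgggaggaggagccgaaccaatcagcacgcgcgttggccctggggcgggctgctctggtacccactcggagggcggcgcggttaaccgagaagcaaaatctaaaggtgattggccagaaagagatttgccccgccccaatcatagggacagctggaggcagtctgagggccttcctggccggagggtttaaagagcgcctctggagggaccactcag
Trib3: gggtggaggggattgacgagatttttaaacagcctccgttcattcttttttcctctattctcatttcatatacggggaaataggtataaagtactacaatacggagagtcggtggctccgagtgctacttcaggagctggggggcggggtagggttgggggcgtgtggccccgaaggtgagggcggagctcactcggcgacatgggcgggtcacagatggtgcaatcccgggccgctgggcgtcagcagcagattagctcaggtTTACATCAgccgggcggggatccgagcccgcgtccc
Asns: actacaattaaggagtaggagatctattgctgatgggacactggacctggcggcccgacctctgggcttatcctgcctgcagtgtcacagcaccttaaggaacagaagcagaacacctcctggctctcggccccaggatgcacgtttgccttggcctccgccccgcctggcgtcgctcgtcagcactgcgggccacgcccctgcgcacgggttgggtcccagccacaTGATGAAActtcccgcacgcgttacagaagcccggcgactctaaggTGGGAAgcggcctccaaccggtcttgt
Ppp1r15a: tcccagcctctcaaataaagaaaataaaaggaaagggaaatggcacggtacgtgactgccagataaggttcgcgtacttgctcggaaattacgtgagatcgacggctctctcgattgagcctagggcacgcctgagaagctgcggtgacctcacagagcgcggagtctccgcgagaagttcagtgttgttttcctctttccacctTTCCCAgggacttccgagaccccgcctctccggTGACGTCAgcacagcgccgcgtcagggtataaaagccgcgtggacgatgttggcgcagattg
Sesn2: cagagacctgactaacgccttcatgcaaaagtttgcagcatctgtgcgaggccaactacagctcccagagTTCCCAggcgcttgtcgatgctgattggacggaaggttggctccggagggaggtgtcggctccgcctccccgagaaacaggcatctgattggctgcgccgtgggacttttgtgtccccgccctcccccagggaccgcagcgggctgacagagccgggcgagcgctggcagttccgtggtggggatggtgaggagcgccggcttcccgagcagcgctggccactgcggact

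The C/EBP-ATF core was found at Chac1 as TTGCATCA on the reverse strand, beginning 193 bases before the transcript start. At Trib3 it read TTACATCA, 14 bases after the start, and at Asns TGATGAAA, 23 bases before it. These 3 of the 11 member windows (27.3%) compare with 1304 of 32851 windows over all genes (3.97%). Among the other ATF4 targets 14 of 42 windows, from 33 genes, held it (33.3%). Those with a match included genes called higher such as Aars and Slc1a4, but also Jdp2, called lower, and the untested Atf3, Fgf21 and Vldlr. A link between a match and a rise was not tested. Among the genes of the ER unfolded protein response 1 of 23 windows held it (4.35%), that of Herpud1. The lists were drawn from known targets, so these shares are descriptions. The ER stress response element was in none of the member windows, in 8 of the 23 windows of the ER list and in 0.119% of all windows. TGACGTCA occurred at Ppp1r15a, 12 bases before the start, and in 1.79% of all windows. TGGGAA was found at Asns, Ppp1r15a and Sesn2, that is in 27.3% of member windows and 25.6% of all windows. A match is a run of letters, and binding was not measured here.

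Atf4 encodes the central transcription factor of the response and lies on chromosome 15 from 80085614 to 80087970 (mm9, GENCODE vM1), with no other annotated gene overlapping it. It had 163.4 and 181.2 CPM in the GSI libraries and 373.1 and 506.1 CPM in the washout libraries. Both washout libraries lay above both GSI libraries. The log2 fold change of Atf4 was 1.35 (standard error 0.165, 95% interval 0.952 to 1.75, adjusted p = 0.00123 by the quasi-likelihood test of edgeR with the Benjamini-Hochberg procedure over all genes). In glmTreat, which tests against a log2 fold change of 1 rather than 0, its adjusted p was 0.109. With each library left out in turn Atf4 was called every time, with values from 1.12 to 1.56. Among the 12266 genes tested 7.74% were called higher and 11.7% lower, and 1 of the 9 tested members was called in each direction (11.1%), a share near this background. Scaling to the total count alone changed the split over all genes from 950 higher and 1437 lower to 586 and 1963, and the members from 1 and 1 to 1 and 3.

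Atf5 (chromosome 7, 52067627 to 52072028, mm9), a bZIP factor whose mRNA carries upstream reading frames like that of Atf4, had 14.3 and 16.7 CPM with GSI against 23.4 and 27.3 CPM after washout. The groups did not overlap. Its log2 fold change was 0.72 (standard error 0.148, adjusted p = 0.00848 by edgeR), under the fold threshold. An adjusted p under 0.05 alone was met by 27% of all genes in the upward and by 25.4% in the downward direction, and by 2 members in each. Atf5 shares exonic bases with Nup62 and Il4i1 on the opposite strand, at most 82 of its 1992 with either. The strand setting of the counting is not given in the sources used here, so the level of Atf5 is uncertain to that extent.

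Cebpg (chromosome 7, 35831441 to 35841522, mm9) encodes C/EBPγ, a small bZIP protein that pairs with ATF4. It had 71.5 and 92.5 CPM with GSI against 94.2 and 98.1 CPM after washout. The washout libraries lay just above the higher GSI library. For Cebpg the log2 fold change was 0.23 (95% interval -0.10 to 0.56, adjusted p = 0.197 by edgeR), and it was 0.03 when libraries were scaled to the total count alone.

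Ddit3 (chromosome 10, 126727830 to 126733344, mm9) encodes CHOP, a bZIP factor that dimerizes with C/EBP proteins and is known for promoting cell death under prolonged stress. Its values were 18.1 and 21.4 CPM with GSI against 16.0 and 19.3 CPM after washout, and the groups overlapped. The log2 fold change of Ddit3 was -0.16 (standard error 0.161, adjusted p = 0.423 by edgeR). Its 95% interval ran from -0.55 to 0.22. Ddit3 shares at most 68 of its 1713 exonic bases with Mars on the opposite strand, a gene that rose by 1.24 on the log2 scale.

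**Figure D1:**
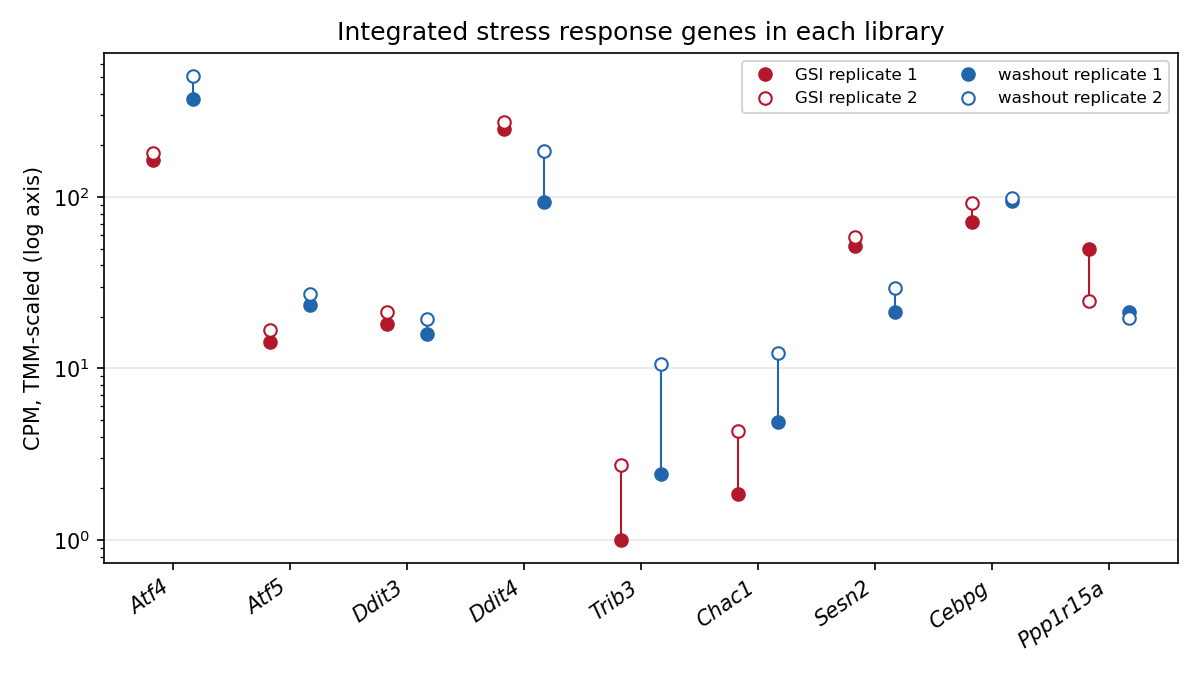
Level of the 9 tested stress genes in each of the 4 libraries, in TMM-scaled CPM on a log axis, with GSI in red, washout in blue, replicate 1 filled and replicate 2 open. Atf4 stood at 163.4 and 181.2 CPM in GSI and at 373.1 and 506.1 CPM after washout, whereas Sesn2 stood at 52.0 and 58.6 CPM in GSI and at 21.4 and 29.4 CPM after washout; Asns, with 7 counts or fewer in every library, is not drawn.

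Trib3, Chac1 and Asns are textbook targets of ATF4. Trib3 encodes a pseudokinase that binds ATF4 and CHOP and dampens them. Its counts were 32 and 40 with GSI against 83 and 142 after washout, or 1.0 and 2.74 CPM against 2.44 and 10.6 CPM. The groups overlapped, because washout replicate 1 lay below GSI replicate 2. The log2 fold change of Trib3, 1.83, was the largest of the members tested, but with a standard error of 0.789 it did not pass (adjusted p = 0.0958 by edgeR). DESeq2, which gave nearly the same log2 fold change of 1.83, called it (adjusted p = 0.0107). Without washout replicate 1 the value was 2.61 and without washout replicate 2 it was 0.47.

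Chac1 encodes a glutathione-degrading γ-glutamylcyclotransferase. It had 59 and 63 counts with GSI against 165 and 165 after washout, which is 1.84 and 4.32 CPM against 4.85 and 12.3 CPM. The groups did not overlap, but within each group the libraries differed more than for most members. For Chac1 the log2 fold change was 1.50 (standard error 0.566, adjusted p = 0.0653 by edgeR), and DESeq2 called it with an adjusted p of 0.0072. Its value was 2.17 without GSI replicate 2 (adjusted p = 0.0282 by edgeR), 2.07 without washout replicate 1 (0.00488), 0.94 without GSI replicate 1 and 0.72 without washout replicate 2. Leaving out a library leaves 1 in its group, which is then assumed to vary like the others.

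Asns, the asparagine synthetase, was at the limit of detection, with 1 and 0 counts with GSI against 0 and 7 after washout. It was too low to be tested, and no fold change is given. Its promoter holds the C/EBP-ATF core shown above. Some genes that most cells use, such as Dnajb9 (4 and 0 counts with GSI, 6 and 0 after washout) and Rragb (0 in every library), were as low in this table, and whether the reads of Asns were missing from the cells or lost in the counting was not tested.

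**Figure D2:**
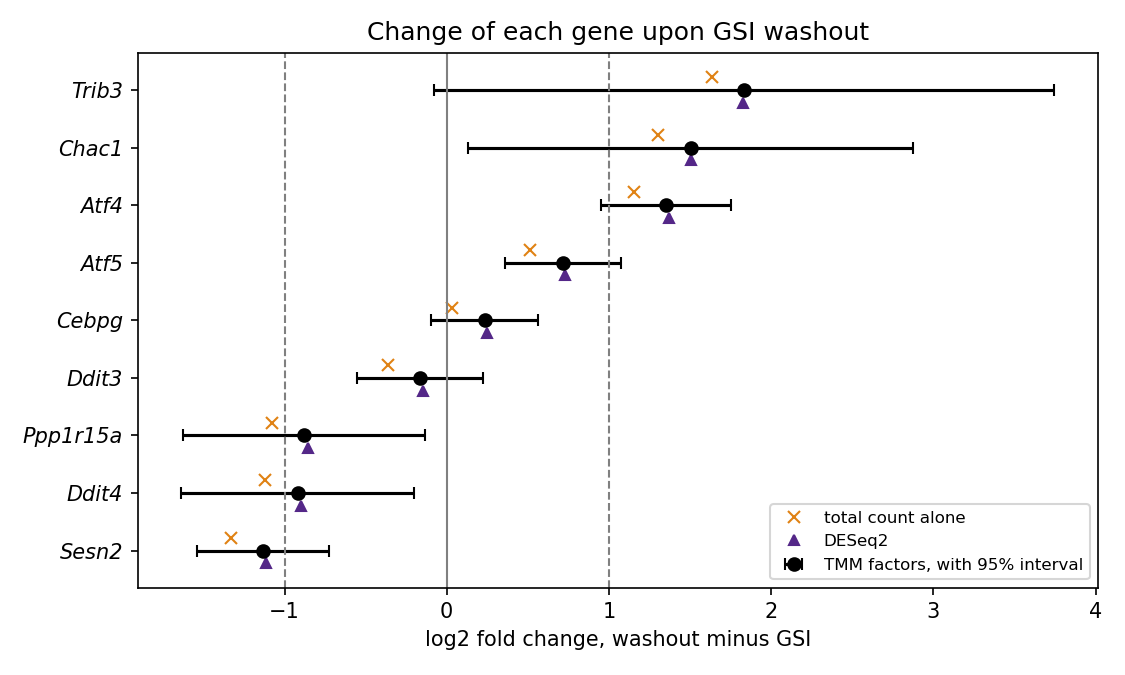
Log2 fold change after washout of the 9 tested stress genes, as black points with their 95% interval from edgeR, with crosses for scaling to the total count alone and triangles for DESeq2. Dashed lines mark the fold thresholds of 1 and -1; the 3 lowest values belong to Sesn2 (-1.13), Ddit4 (-0.92) and Ppp1r15a (-0.88), and the widest interval to Trib3.

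Sesn2 (chromosome 4, 132047947 to 132066416, mm9) encodes Sestrin2, a leucine sensor that restrains the growth kinase mTORC1 through the GATOR complexes. It had 52.0 and 58.6 CPM with GSI against 21.4 and 29.4 CPM after washout, with no overlap. For Sesn2 the log2 fold change was -1.13 (standard error 0.168, adjusted p = 0.00243 by edgeR), a level 2.19-fold lower. It passed the fold threshold narrowly and missed it with -0.90 without washout replicate 1 and with -0.89 when GC content and exon length were corrected for, although the adjusted p stayed under 0.05 in both.

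Ddit4 (chromosome 10, 59412423 to 59414518, mm9) encodes REDD1, which restrains mTORC1 through the TSC complex and also responds to hypoxia, glucocorticoids and p53. In GSI it was the most abundant member per kb of exon, with 249.9 and 274.7 CPM, and after washout it had 93.3 and 185.4 CPM. Both washout libraries lay below GSI, but they differed from each other by more than the upper one differed from the lower GSI library. For Ddit4 the log2 fold change was -0.92 (standard error 0.296, adjusted p = 0.0402 by edgeR), just under the fold threshold. Scaled to the total count alone it was called lower, with -1.12, whereas DESeq2 gave an adjusted p of 0.116. Without washout replicate 2 its value was -1.49 and it was called, and without washout replicate 1 it was -0.50.

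Ppp1r15a encodes GADD34, the regulatory subunit that directs protein phosphatase 1 to eIF2 and so closes the response. It had 50.04 and 24.7 CPM with GSI against 21.3 and 19.8 CPM after washout. The GSI libraries differed from each other more than GSI replicate 2 differed from washout. The log2 fold change for Ppp1r15a was -0.88 (standard error 0.308, adjusted p = 0.0525 by edgeR). It was -1.28 and called without GSI replicate 2, and -0.27 without GSI replicate 1, so its size rests on that library. With total-count scaling it was called at -1.08. Ppp1r15a shares 12 of its 2937 exonic bases with Tulp2 on the opposite strand.

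In all, the washout libraries both lay above the GSI libraries for 4 of the 9 tested members and both below for 3, while this held for 38.2% and 39.1% of all genes tested. The order of levels, compared per kb of exon, changed between the groups. In GSI it ran from Ddit4 (155.7 CPM per kb) and Atf4 (99.9) through Cebpg (16.6), Sesn2 (15.9), Ppp1r15a (12.7) and Ddit3 (11.5) to Atf5 (7.77), Chac1 (1.88) and Trib3 (0.880). The ranges of neighbors from Cebpg to Ddit3, and those of Chac1 and Trib3, overlapped. After washout it ran from Atf4 (255.0 CPM per kb) and Ddit4 (82.7) through Cebpg (19.5), Atf5 (12.7), Ddit3 (10.3), Sesn2 (7.31) and Ppp1r15a (6.99) to Chac1 (5.23) and Trib3 (3.06). Here the ranges from Sesn2 to Trib3 overlapped between neighbors. Atf4 and Ddit4 thus exchanged the highest places, with ranges that did not overlap in either group.

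None of the 4 eIF2 kinases was called. Eif2ak3 (PERK, the ER stress kinase) was lower with a log2 fold change of -0.34 (adjusted p = 0.0352 by edgeR) and Eif2ak1 (HRI, the heme-regulated kinase) higher with 0.28 (adjusted p = 0.043). Eif2ak4 (GCN2, which senses uncharged tRNA) had -0.29 (adjusted p = 0.0616 by edgeR) and Eif2ak2 (PKR, which binds double-stranded RNA) had -0.18 (adjusted p = 0.306). The wider list of eIF2 kinases and their regulators, eIF2 and eIF2B subunits and phosphatase subunits held 21 genes, all tested. Past both thresholds 2 were higher (9.52%) and 0 lower, beside 7.74% and 11.7% of all genes. With so few genes these counts cannot be told from that background. By edgeR's adjusted p alone 13 were higher and 2 lower, beside 27% and 25.4% of all genes, with a median log2 fold change of 0.52 against -0.01 over all genes. The count of 0 lower was the same in DESeq2 and at an unadjusted p under 0.05 in edgeR with the fold threshold. The called genes encode subunits of eIF2 itself. Eif2s2 rose by 1.26 on the log2 scale (108.7 and 104.5 CPM with GSI, 270.9 and 240.9 CPM after washout), and Eif2s1, which carries the phosphorylated serine, rose by 1.21 and was at 0.96 when GC content and exon length were corrected for. Ppp1r15b, the constitutive partner of protein phosphatase 1 and paralog of Ppp1r15a, was higher by 0.60 on the log2 scale (adjusted p = 0.00321 by edgeR).

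Of the other ATF4 targets, 44 were in the table and 35 could be tested. Past both thresholds 24 rose and 1 fell, that is 68.6% called higher beside the 7.74% of all genes, and their median log2 fold change was 1.29. Because the list was chosen with earlier results of these data known, this share is a description only. Genes that make tRNA charged with amino acids formed the largest group. Of 13 aminoacyl-tRNA synthetases 10 rose, and the other 3 were higher by edgeR's adjusted p alone. Nars, which charges asparagine tRNA, rose by 1.78 on the log2 scale (118.6 and 117.2 CPM with GSI, 408.5 and 402.8 CPM after washout), and the lowest value was that of Sars with 0.64.

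Of 5 tested enzymes of serine synthesis and one-carbon metabolism 4 rose. Mthfd2, the mitochondrial methylenetetrahydrofolate dehydrogenase, rose by 2.23 on the log2 scale, with 34.2 and 47.9 CPM with GSI and 173.6 and 210.2 CPM after washout (standard error 0.186, adjusted p = 0.000445 by edgeR). Shmt2 rose by 2.19, Psat1 by 1.71 and Phgdh, the entry enzyme of serine synthesis, by 1.40 on the log2 scale. Of 8 amino acid transporters 5 rose, led by the neutral amino acid transporter Slc1a4 (2.01) and the cationic amino acid transporter Slc7a1 (1.89). The cystine transporter Slc7a11, with 363.0 and 312.7 CPM with GSI against 291.8 and 221.0 CPM after washout, had a log2 fold change of -0.40 (adjusted p = 0.0781 by edgeR). Of the 4 other amino acid enzymes tested 2 rose, Got1 (1.18) and Aldh18a1 (1.03).

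Among the regulators of this list, Eif4ebp1, which encodes a repressor of cap-dependent translation that mTORC1 switches off, showed the largest rise of the list. It had 12.9 and 14.2 CPM with GSI against 55.9 and 80.6 CPM after washout. The log2 fold change was 2.33 (standard error 0.196, adjusted p = 0.00045 by edgeR). The tRNA exporter Xpot rose by 1.44, and Nupr1 rose by 1.43 from counts of no more than 28. Jdp2, a bZIP repressor, was the only one called lower and fell from 25.3 and 20.2 CPM to 6.99 and 8.56 CPM. The stress-induced Atf3, Gdf15, Fgf21, Stc2, Adm2 and Vldlr had 8 counts or fewer in every library and were not tested.

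**Figure D3:**
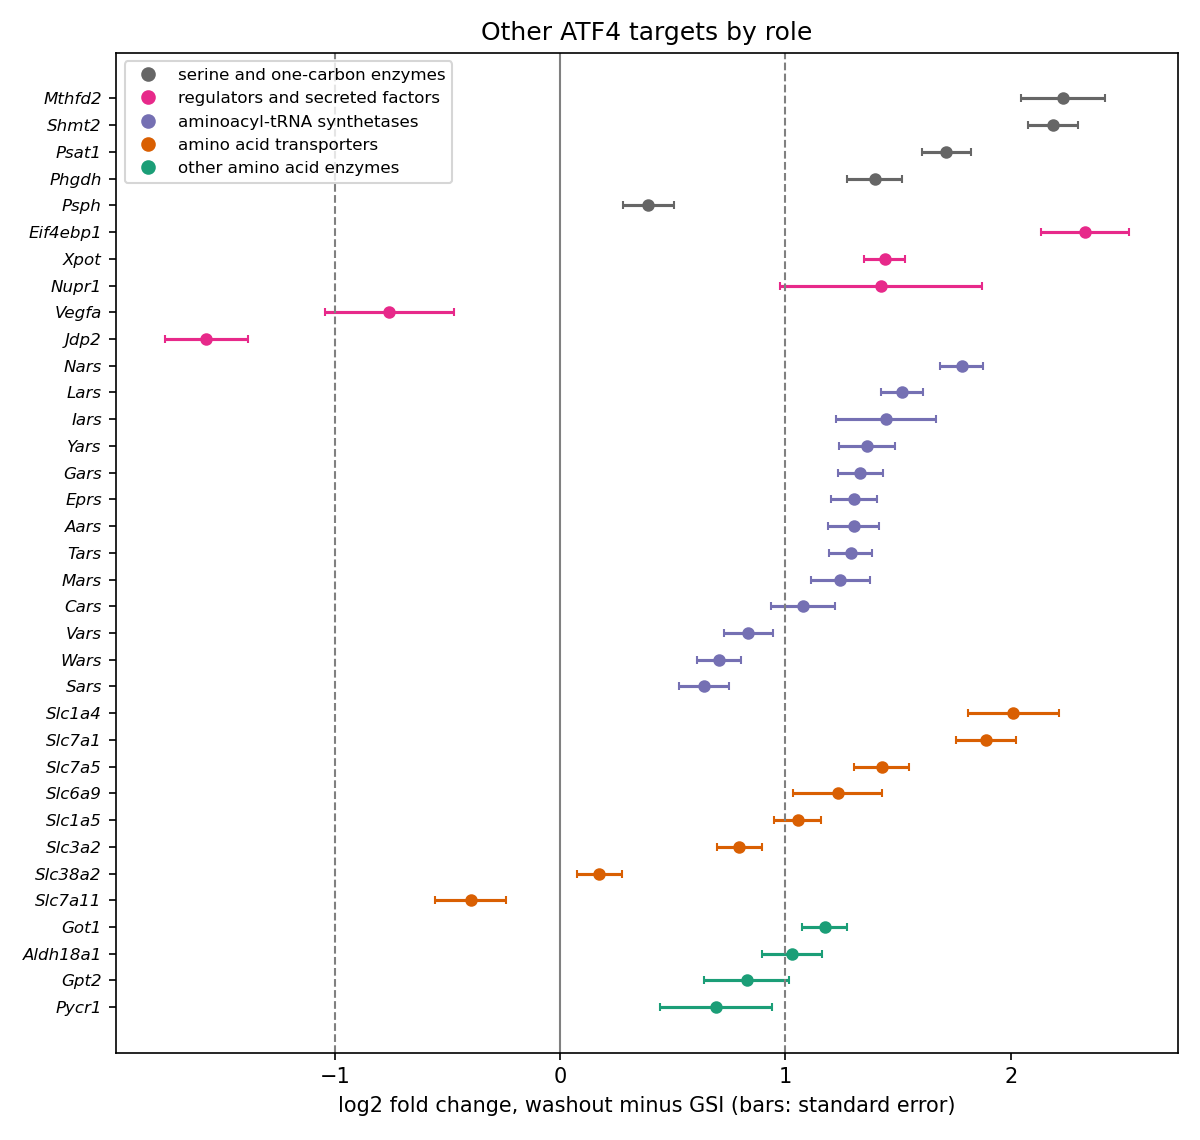
Log2 fold change after washout, with its standard error from edgeR, of the 35 tested genes of the list of other ATF4 targets, colored by role. Dashed lines mark the thresholds of 1 and -1; 24 genes were called higher, up to Eif4ebp1 (2.33), and Jdp2 (-1.57) was called lower.

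The unfolded protein response of the endoplasmic reticulum shares the kinase PERK with the integrated stress response but reaches its chaperones through ATF6 and XBP1. The list held 26 genes, of which 25 were tested, and 0 were called higher and 2 lower (8.0%), beside 7.74% and 11.7% of all genes, with a median log2 fold change of 0.18. With so few genes these counts cannot be told from that background. The count of 0 higher was the same in DESeq2 and for unadjusted p-values under 0.05 with the fold threshold in edgeR. Of the 25, 17 had a log2 fold change above 0 and 8 below. Both washout libraries lay above both GSI libraries for 13 and below for 7, beside 38.2% and 39.1% of all genes tested. By edgeR's adjusted p alone, 4 were higher and 6 lower, where 27% and 25.4% of all genes were. Hspa5, the chaperone BiP, had 463.6 and 510.6 CPM with GSI against 524.7 and 579.0 CPM after washout. The log2 fold change was 0.18 (adjusted p = 0.24 by edgeR). The highest value was that of Canx with 0.73 (adjusted p = 0.00737). The genes called lower were Ern1, which encodes the XBP1-splicing sensor IRE1 and fell by 1.44 on the log2 scale, and Ero1lb, an ER oxidoreductase, which fell by 1.37. Xbp1 itself was lower with -0.80 (adjusted p = 0.00208 by edgeR), under the fold threshold.

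The bZIP proteins that can pair with members of this group formed a list of which 15 were tested, with 0 called higher and 1 lower (6.67%), beside 7.74% and 11.7% of all genes. With so few genes these counts cannot be told from that background. DESeq2 gave the same counts, and at an unadjusted p under 0.05 in edgeR 0 were higher and 2 lower past the fold threshold. The median of the list was -0.08. Batf, an AP-1 family factor, fell by 2.51 on the log2 scale (5.81 and 4.11 CPM with GSI, 0.999 and 0.670 CPM after washout). Cebpb, a frequent partner of ATF4 and CHOP, had only 76 and 20 counts with GSI against 33 and 11 after washout, which gave -1.08 on the log2 scale (adjusted p = 0.0577 by edgeR). Cebpd had the highest value of the list with 1.25 (adjusted p = 0.0878).

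**Figure D4:**
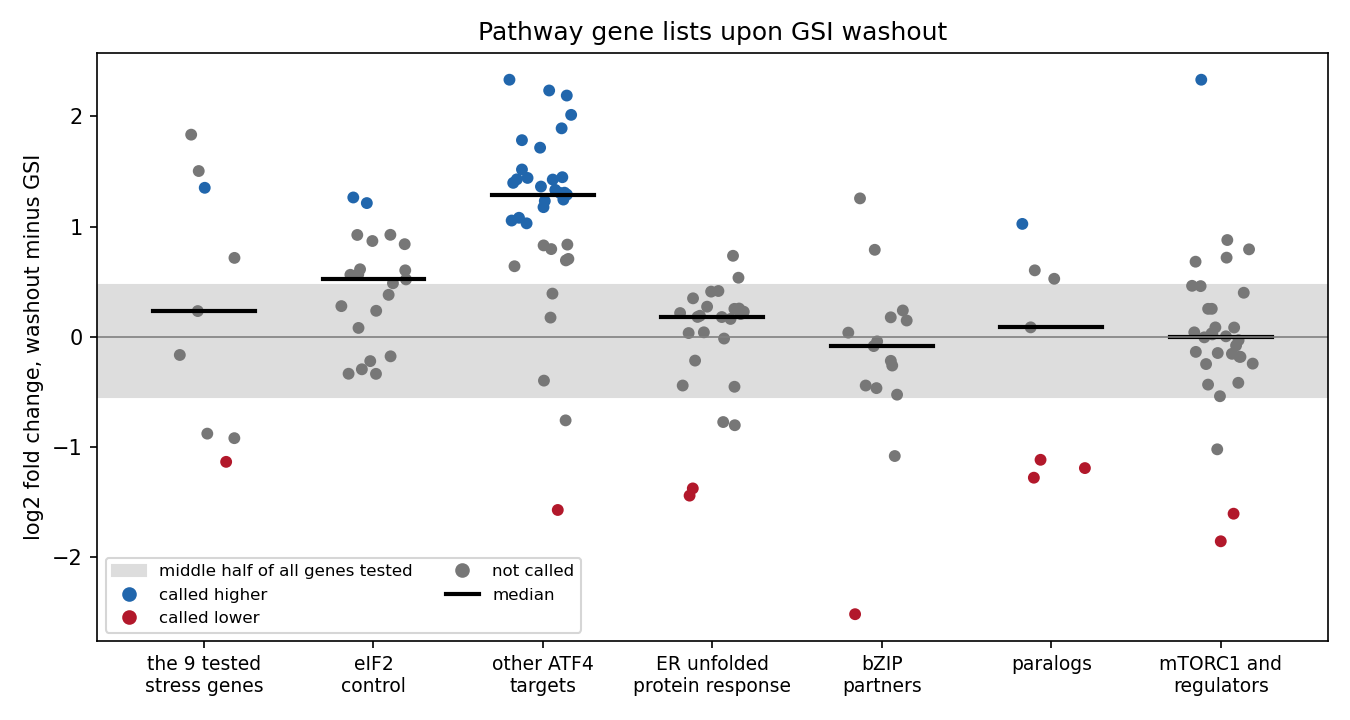
Log2 fold change after washout of every tested gene of the stress group and of 6 pathway lists, with the median of each list as a black line and the middle range (first to last quartile, -0.55 to 0.47) of all genes tested in grey. Blue points are genes called higher, red points genes called lower and grey points genes not called. The list of other ATF4 targets has its median at 1.29 and the list of the ER unfolded protein response at 0.18.

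Of 7 tested paralogs of the members 1 was called higher (14.3%) and 3 lower (42.9%), beside 7.74% and 11.7% of all genes, with a median log2 fold change of 0.09. In the sestrin family all members fell. Sesn1 had 223.6 and 193.9 CPM with GSI against 93.7 and 89.3 CPM after washout, and Sesn3 had 125.6 and 134.2 CPM against 56.0 and 50.9 CPM. Sesn1 fell by 1.19 (standard error 0.109, adjusted p = 0.000548 by edgeR) and Sesn3 by 1.28 (standard error 0.0997, adjusted p = 0.000397) on the log2 scale, next to 1.13 for Sesn2. Sesn1 and Sesn3 are known as targets of p53 and FOXO factors, but the cause of the fall of the sestrins was not tested. In the Tribbles family, Trib1 fell by 1.11 (standard error 0.316, adjusted p = 0.0262 by edgeR), with 4.75 and 3.08 CPM with GSI against 1.76 and 1.93 CPM after washout, and lost the call with DESeq2 (adjusted p = 0.0501) and without GSI replicate 1 (-0.75, adjusted p = 0.196 by edgeR) or washout replicate 1 (adjusted p = 0.0917). Trib2 was higher with 0.53 (adjusted p = 0.0254 by edgeR), under the fold threshold. Chac2, the constitutive relative of Chac1, had a log2 fold change of 0.09 (standard error 0.276), and the sign turned under total-count scaling (-0.11). Ggct, another γ-glutamylcyclotransferase, rose by 1.02 and was not called with total-count scaling (0.82) or without GSI replicate 1 (0.91) or washout replicate 1 (0.88). Ddit4l, the paralog of Ddit4, had 1 count in all libraries together.

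**Figure D5:**
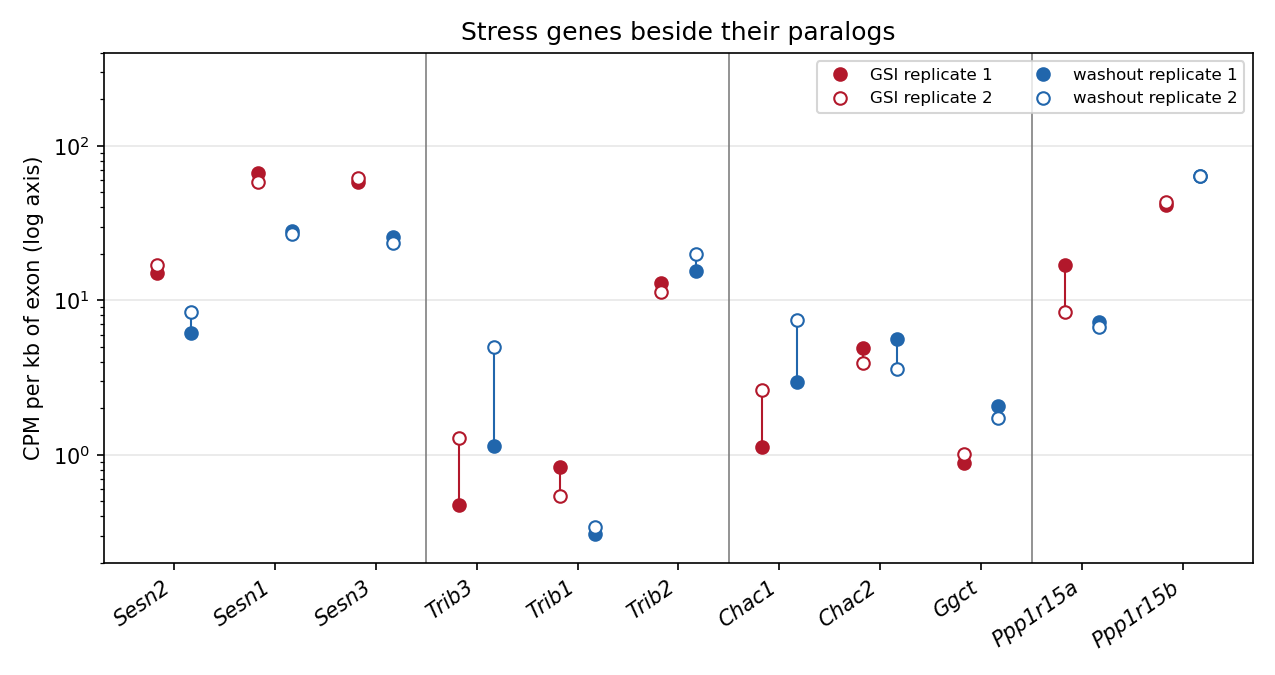
Level in each library, in CPM per kb of exon on a log axis, of Sesn2, Trib3, Chac1 and Ppp1r15a beside the paralogs of each, with GSI in red, washout in blue, replicate 1 filled and replicate 2 open. All 3 sestrins lay lower after washout with no overlap between the groups, while Ppp1r15b lay higher and Ppp1r15a lower.

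Since Sesn2 and Ddit4 both act on mTORC1, the complex and its regulators were listed as well. Of 32 tested genes 1 was called higher (3.12%) and 2 lower (6.25%), beside 7.74% and 11.7% of all genes. The gene called higher was Eif4ebp1, described above. Those called lower were Gatsl3 (-1.85, and -1.54 without GSI replicate 1) and Gatsl2 (-1.60). These are older symbols of the CASTOR genes, whose proteins like the sestrins hold back mTORC1. Gatsl2 had 19.5 and 14.1 CPM with GSI against 6.20 and 4.76 CPM after washout. The kinase Mtor itself had a log2 fold change close to 0 (adjusted p = 0.974 by edgeR), and its activator Rheb was higher with 0.72 (adjusted p = 0.00361), under the fold threshold.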

How the data were processed

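RNA-Seq was analyzed in 4 libraries of Beko cells, 2 per condition, grouped by their labels. Per the labels and the methods, the authors used trimGalore for trimming, HISAT2 2.2.1 for alignment to mm9 with 1 reported alignment for each read, and summarizeOverlaps for counting. They normalized counts and called deregulated genes with DESeq2, which is used here as an alternative to edgeR. The deposited table holds unnormalized read counts for every gene and library. The strand setting is not given in the sources used here.

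Genes that passed filterByExpr were tested in edgeR 4.0.16 (R 4.3.3), with TMM factors and the quasi-likelihood F-test (estimateDisp, glmQLFit) for the condition alone. Adjustment followed Benjamini and Hochberg over the 12266 genes tested. Standard errors were obtained from the fold change and its F statistic. Scripts were tested on simulated data. Positions and exon lengths were those of GENCODE vM1 on mm9, where 20641 of 24391 symbols had a single gene.

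The members and the gene lists were chosen with earlier results of these data known. Named by rule were all members, eIF2 kinases and paralogs, the largest rise and fall of each list, and genes called. Slc7a11, Sars, Hspa5, Xbp1, Cebpb, Mtor, Rheb, Dnajb9, Rragb and the untested ATF4 targets were named after their values were seen. Alternatives were DESeq2 1.42.0, other scalings and filters, thinning, the replicate number as a block, glmTreat, a prior count of 2, a GC and length correction, and leaving out each library. Fold changes within a replicate number were added after seeing the data.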

Additional observations from a re-analysis of the deposited data

How the results depend on the processing

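No member changed direction in any of the alternatives. Under the alternatives, 17 values of members passed both thresholds where they had not, 4 no longer passed and 132 were unchanged. Those 132 include the fold changes within a replicate number, which were judged by their distance from the main value and not by the thresholds. Among the other named genes 401 values kept their side, 4 newly passed, 23 no longer did and 4 reversed. Those 4 were of Chac2, which was -0.11 with the total count alone, -0.24 after the correction for GC content and length, -0.06 without GSI replicate 2 and -0.29 without washout replicate 1, against at most 0.34 with another library left out. The number of members called higher was 3 with DESeq2, with no filter beyond 1 count, with the replicate block and with the block after thinning, 2 with the adjusted p alone and after the GC correction, 0 in glmTreat, and between 1 and 3 with 1 library left out. The number called lower was 3 with the total count alone, 2 with thinning and the replicate block and with the adjusted p alone, 0 in glmTreat and after the GC correction, and between 0 and 2 with 1 library left out. Over all genes, 586 were called higher and 1963 lower with the total count alone, which moves the share of higher calls from 39.8% to 23% and the median log2 fold change from -0.01 to -0.21, 3315 and 3120 with the adjusted p alone, and 308 and 501 in glmTreat. Of the other ATF4 targets 15 were called higher in glmTreat, and with 1 library left out between 1 and 2 were called lower. Of the ER list 4 were higher and 6 lower with the adjusted p alone, and 0 were lower in glmTreat. The cause of these shifts was not tested, beyond what each setting does by construction. The labels do not say that a replicate number marks a shared culture or day, so the block is a hint only. Deviations of same-numbered libraries from their group mean correlated at 0.50 across genes tested, and 8 of the 9 tested members were higher in replicate 2 than in replicate 1 in both groups, as were 33.1% of all genes tested. With the block 981 genes were called higher and 1576 lower, and Trib3 (1.65) and Chac1 (1.45) passed both thresholds. Within replicate numbers 1 and 2 the log2 fold change of Trib3 was 1.29 and 1.95, and that of Chac1 1.39 and 1.51. For Ddit4 it was -1.42 and -0.57, and for Ppp1r15a -1.23 and -0.32. The standard errors of Trib3 (0.789) and Chac1 (0.566) were the largest of the members, and their libraries of 1 group differed widely. Asns, with 7 counts or fewer in every library, did not pass filterByExpr and so was not tested in the main fit.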
